A study of Mus musculus with 8 samples.

Results

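The genes of IL-4 and IL-13 receptor signalling were described in H3K27ac peak lists from 4 breast tumors of mice. The members, 10 of 21938 protein-coding genes of the annotation, were Il4ra, Il13ra1, Stat6, Jak1, Jak3, Tyk2, Il17rb, Il1rl1, Socs1 and Socs3. They were listed by name, with earlier results of these data known. For each gene, the peaks in a window of the gene body plus 50 kb on either side were taken per tumor. All mice were Balb/c, carried the polyoma middle T oncogene (PyMT), lacked Rag1 and with it their own T and B cells, and had received wild-type CD4+ T cells when 4 weeks old, so control and test mice share the oncogene, the deletion and the transferred cells. The 2 control tumors came from PyMT;Rag1KO mice and the 2 test tumors from K14-TSLPtg;PyMT;Rag1KO mice, whose added transgene expresses thymic stromal lymphopoietin (TSLP) from the promoter of keratin 14, which is active in basal cells of the skin and other epithelia. Tumors were taken at terminal size, pieces of whole tissue were used, and the sample names call the test samples cysts. Whole tissue holds several cell types, so fewer cells of a type and less acetylation per cell cannot be told apart.

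IL-4 and IL-13 are cytokines of type 2 immunity, and TSLP is an epithelial cytokine that favours this response. IL-4 binds the receptor chain IL-4Rα, which pairs either with the common γ chain, served by the kinases JAK1 and JAK3, or with IL-13Rα1, served by JAK1 and TYK2, and the latter pair is also the IL-13 receptor. Both receptors phosphorylate STAT6, which then enters the nucleus and binds target genes, while SOCS1 and SOCS3 are induced by cytokines and restrain the kinases. IL-17RB and ST2, the product of Il1rl1, are receptors for IL-25 and IL-33, epithelial cytokines that act beside TSLP. In the mammary gland, IL-4, IL-13 and STAT6 are known to take part in luminal differentiation, and the comparison asks how the marked chromatin of these genes differed between tumors grown with and without the TSLP transgene, where mice of both groups keep their own Tslp gene. H3K27ac marks active promoters and enhancers.

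Promoters of 3 members are shown first, because the rest of the account turns on where acetylation begins at these genes. They are RefSeq sequences of GRCm38.p6 (mm10), 250 bases before and 50 bases from the RefSeq start, read 5′ to 3′ on the gene's strand, and they carry the letters of the reference strain and not of Balb/c. In the Il4ra promoter (chr7:125552021-125552320, plus strand) and the Il1rl1 promoter (chr1:40429320-40429619, plus strand), capitals mark CpG dinucleotides. The former lay wholly within a peak in all 4 tumors, and the latter, shown after its values were seen, lay in no peak of any tumor.
Il4ra: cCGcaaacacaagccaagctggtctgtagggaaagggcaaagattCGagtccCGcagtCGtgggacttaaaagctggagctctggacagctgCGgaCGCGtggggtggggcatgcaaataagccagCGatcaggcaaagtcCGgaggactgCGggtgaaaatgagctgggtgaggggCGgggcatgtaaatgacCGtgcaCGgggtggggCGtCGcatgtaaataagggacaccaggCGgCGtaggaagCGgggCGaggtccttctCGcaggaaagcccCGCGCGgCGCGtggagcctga
Il1rl1: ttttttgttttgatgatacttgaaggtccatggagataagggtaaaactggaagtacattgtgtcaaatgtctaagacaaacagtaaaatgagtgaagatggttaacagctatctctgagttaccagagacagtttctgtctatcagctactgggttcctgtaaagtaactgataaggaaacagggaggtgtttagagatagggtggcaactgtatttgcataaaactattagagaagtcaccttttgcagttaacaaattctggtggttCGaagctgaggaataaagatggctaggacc
The Il4ra stretch holds 25 CpG dinucleotides, with a ratio of observed to expected CpG of 0.935, whereas the Il1rl1 stretch holds 1, with a ratio of 0.0987. A second RefSeq promoter of Il1rl1, 10059 bases into the gene, was also free of peaks and had a ratio of 0.214. Over the 11 promoters of the 10 genes the median ratio was 0.742, and over all 32841 promoters of the table it was 0.384. The promoters of Stat6 and Jak3 had low ratios too, 0.3245 and 0.408, yet lay wholly within a peak in all 4 tumors. In the Socs3 promoter (chr11:117969317-117969616, minus strand) capitals mark the one match to a STAT-type motif among the 11 promoters. The searched motifs were TTCNNNGAA, where N is any base, and the same arms parted by 4 bases. Both were sought on either strand, where they read alike, and the longer spacing is the one STAT6 is known to prefer.
Socs3: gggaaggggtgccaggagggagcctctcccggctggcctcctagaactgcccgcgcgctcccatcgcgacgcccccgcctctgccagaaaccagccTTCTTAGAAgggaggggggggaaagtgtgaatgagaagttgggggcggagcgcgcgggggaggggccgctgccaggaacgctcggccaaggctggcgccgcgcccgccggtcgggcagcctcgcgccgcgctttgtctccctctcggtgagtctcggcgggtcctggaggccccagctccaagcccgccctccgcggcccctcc
The match, with 3 bases between the arms, began 154 bases before the RefSeq start, which lies 681 bases downstream of the GENCODE start. A match to either motif in 1 of 11 promoters can be set beside 14.6% of all promoters, 8.30% for the shorter and 6.95% for the longer spacing. The whole Socs3 stretch lay in a peak in each of the 4 tumors.

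The next 4 stretches are shown because they lay in peaks of both tumors of one group and of neither tumor of the other. Regions were made by joining touching or overlapping peaks across tumors, and such regions are called control-only or test-only. The sequences are the central 300 bases, or the whole region where it is shorter, on the plus strand of mm10. The control-only pair lay in an intron of Unc13a, at -7.42 kb from the start of Jak3 (chr8:71668503-71668802), and between genes at -12.1 kb from the start of Il4ra (chr7:125539751-125539988).
Jak3 control-only: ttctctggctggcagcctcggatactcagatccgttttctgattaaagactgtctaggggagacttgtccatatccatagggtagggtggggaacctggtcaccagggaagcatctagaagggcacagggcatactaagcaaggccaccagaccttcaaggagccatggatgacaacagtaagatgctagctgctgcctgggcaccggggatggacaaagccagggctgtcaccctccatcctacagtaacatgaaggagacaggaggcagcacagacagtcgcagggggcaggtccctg
Il4ra control-only: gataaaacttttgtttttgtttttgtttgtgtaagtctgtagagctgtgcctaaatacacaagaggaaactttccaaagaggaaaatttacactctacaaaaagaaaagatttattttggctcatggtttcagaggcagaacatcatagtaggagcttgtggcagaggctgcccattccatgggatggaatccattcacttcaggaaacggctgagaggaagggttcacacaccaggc
The test-only pair lay in an intron of Jak1, 27.7 kb past its start (chr4:101237403-101237601), and in an intron of Pgs1, at -32.9 kb from the start of Socs3 (chr11:118002988-118003287).
Jak1 test-only: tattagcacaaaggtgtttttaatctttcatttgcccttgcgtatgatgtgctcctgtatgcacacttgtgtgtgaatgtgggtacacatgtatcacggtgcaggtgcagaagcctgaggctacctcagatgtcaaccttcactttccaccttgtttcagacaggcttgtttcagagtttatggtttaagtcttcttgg
Socs3 test-only: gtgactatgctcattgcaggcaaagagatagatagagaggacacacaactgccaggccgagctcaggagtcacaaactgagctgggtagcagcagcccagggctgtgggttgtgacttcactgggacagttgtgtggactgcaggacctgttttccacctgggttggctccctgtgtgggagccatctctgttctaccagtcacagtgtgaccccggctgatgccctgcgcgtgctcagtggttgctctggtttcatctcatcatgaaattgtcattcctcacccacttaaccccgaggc
None of the 4 held either STAT-type motif (0 matches), so no letter is in capitals. A further test-only region of Jak1, 44.3 kb past the start and not printed, held 1 match with each spacing in its central 300 bases. Of 90 regions of at least 300 bases in the windows of the 10 genes, 15 (16.7%) held a match in their central 300 bases, beside 17.4% of 62930 such regions in the genome.

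The tumors differed in the size of their peak lists. The lists held 69861 and 67850 intervals in the control pair and 65763 and 59762 in the test pair, and covered between 64.3 and 73.1 Mb, with test 2 lowest in both. The lists used here give positions and widths but neither read depth nor peak height, and a deeper library could have more and wider peaks. At the annotated start of the gene, luminal epithelial markers had a peak in all 4 tumors for 9 of 10 genes, T cell markers for 0 of 10, B cell markers for 0 of 5, and macrophage markers for 6 of 12. The share over all genes was 49.6%. With any transcript start, the luminal marker Elf5, the T cell marker Lck and the macrophage markers Csf1r and Fcgr3 had one as well. Neither Tslp nor Rag1 had a promoter peak in any tumor, and the mm10 positions of the peaks do not show whether the transgene was acetylated. With 2 tumors against 2, an exact two-sided permutation test over tumors cannot give a p below 0.333, and no other test was run. Differences are given with each tumor's value, and with a statement on whether the values of the groups overlapped.

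**Figure D1:**
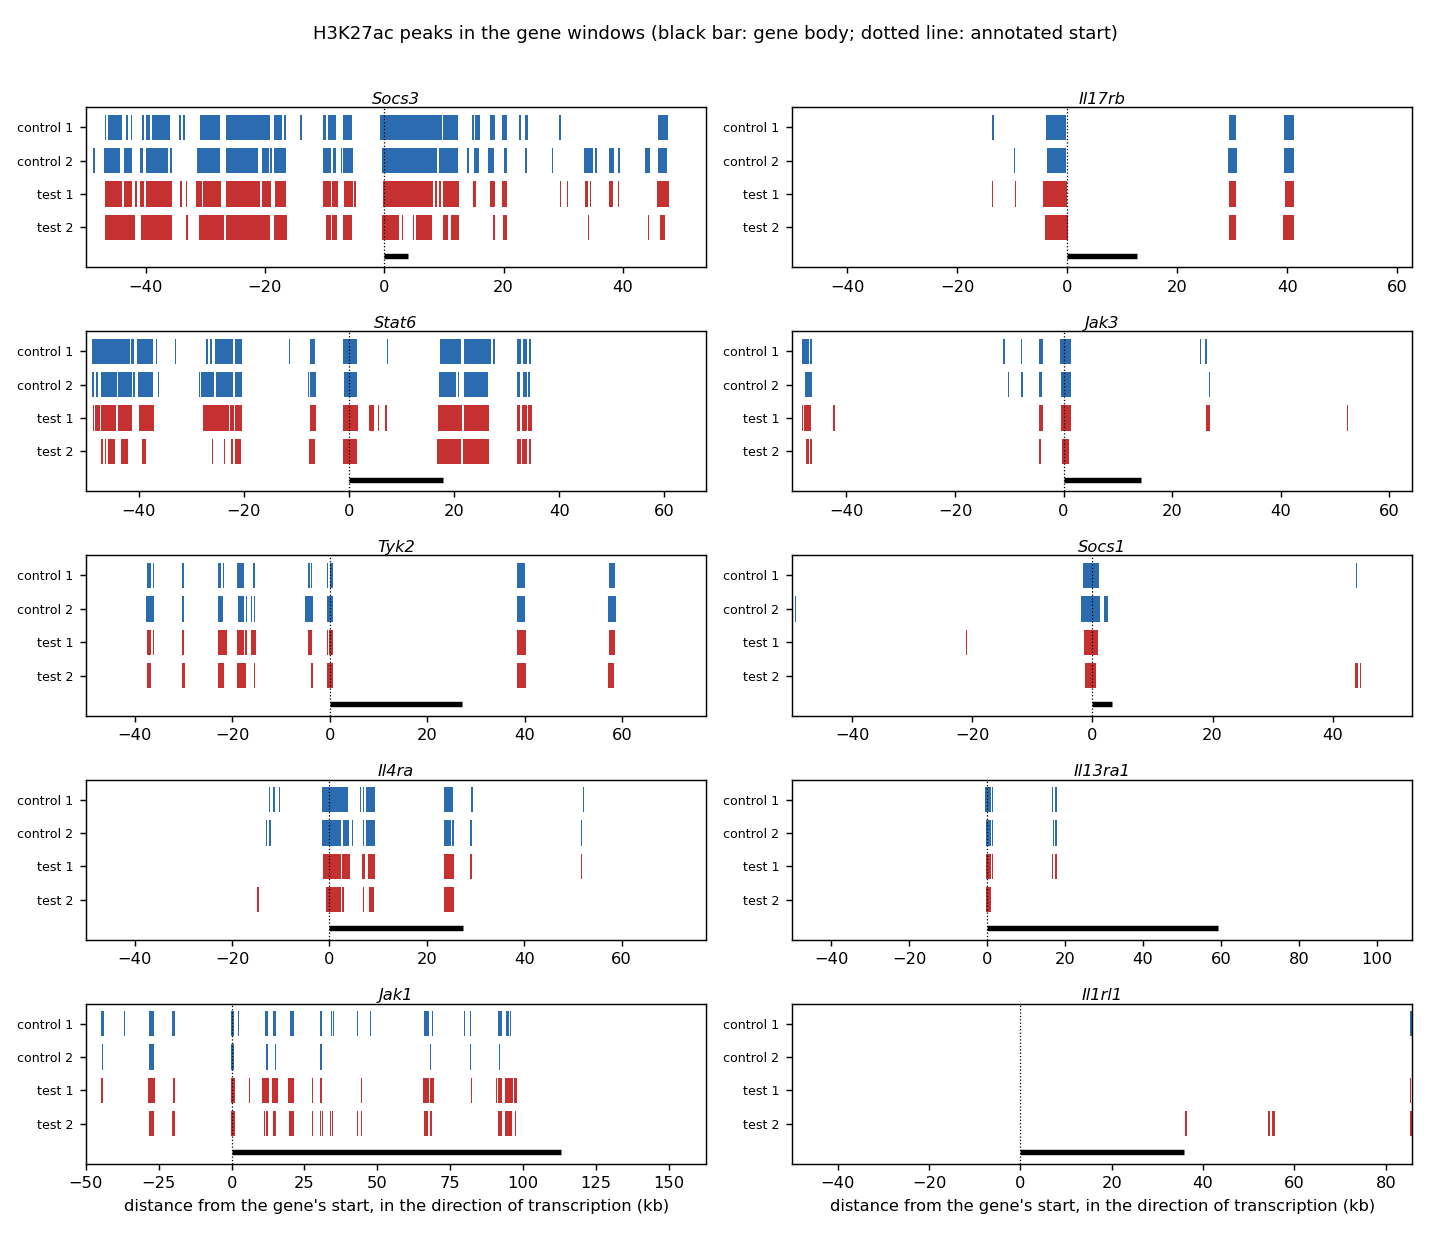
H3K27ac peaks in the windows of the 10 genes, with 1 row per tumor (blue, control; red, test) and distance from the annotated start in kb on the x axis, in the direction of transcription. The black bar is the gene body and the dotted line its start. Peaks narrower than 0.25 kb are drawn at that width. Socs3 has the densest window, Jak1 has many separate peaks in its body, thinned out in control 2, and Il1rl1 has no peak over its body.

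An acetylated promoter was carried by 9 of the 10 genes in all 4 tumors, and the exception was the IL-33 receptor gene Il1rl1. A peak reached within 1 kb of the annotated start of 9 members in each tumor, where 49.6% of all protein-coding genes had such a peak in all 4 tumors and 42.8% in none. The start itself lay in a peak in all 4 tumors for 8 members, beside 32.5% of all genes. The ninth gene, Il17rb, had its start outside the peak in 3 tumors.

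The share of the window that lay in peaks, called coverage here, ranged widely among the genes. Its mean over the 4 tumors was highest for Socs3 at 41.0% (36.5 to 44.3%), which was above 99.9% of the 18693 genes with coverage in any tumor, and next for Stat6 at 25.02% (17.96 to 28.3%). Tyk2 (7.81%), Il4ra (7.45%), Jak1 (6.99%) and Il17rb (6.44%) followed, with ranges that overlapped between neighbours in this order. Jak3 (3.86%) and Socs1 (2.87%) also overlapped each other, and Il13ra1 (1.22%) and Il1rl1 (0.504%) came last with overlapping ranges. The ranges of Socs3 and Stat6, of Stat6 and Tyk2, of Il17rb and Jak3, and of Socs1 and Il13ra1 did not overlap. Of the members, 6 stood above the median gene, for which the mean coverage was 4.64%.

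Between the groups, coverage was higher in both control tumors for Il4ra and Socs1, and higher in both test tumors for Jak1 and Il17rb. The remaining 6 genes overlapped. These 2 members in each direction can be read against 13% of all tested genes with both control tumors higher and 17.3% with both test tumors higher, and are close to those shares. The median difference over the 10 genes, test mean minus control mean, was -0.518 percentage points, beside 0.0192 over all tested genes, and 6 members had a lower and 4 a higher mean in the test pair. Without test 2 the median was 0.561. Test 2 was the lowest of the 4 tumors for 6 of the 10 genes and test 1 the highest for 5. The mean coverage of all gene windows was also lowest in test 2, at 6.12%, and highest in test 1, at 7.23%, with 6.84% and 6.75% in the control pair, and after scaling to these means the median difference was -0.488, with 3 members higher in both control tumors and 2 in both test tumors.

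**Figure D2:**
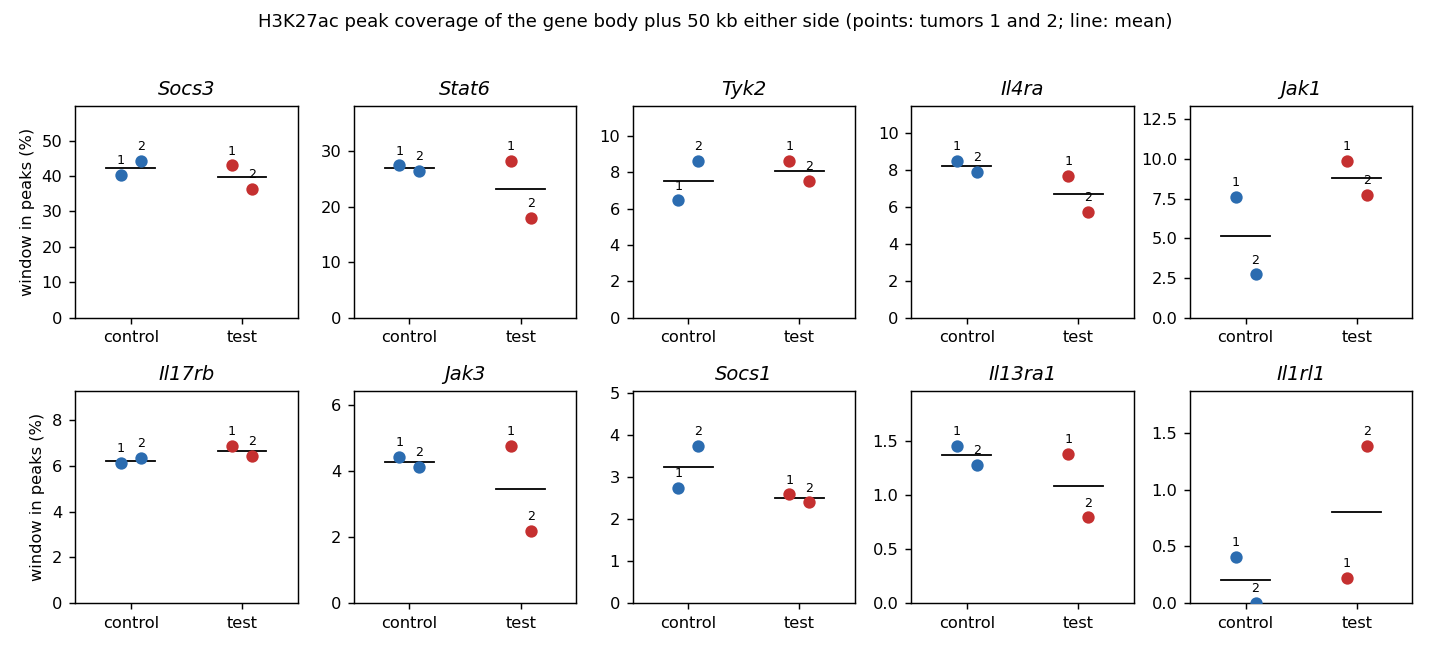
Share of each gene window in H3K27ac peaks (y axis, percent, from 0) in control (blue) and test (red) tumors, with the tumor number beside each point and the group mean as a line. The groups do not overlap for Il4ra, Socs1, Jak1 and Il17rb, and test 2 is the lowest point for 6 genes, with a wide gap for Stat6, Jak3 and Il13ra1.

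**Figure D3:**
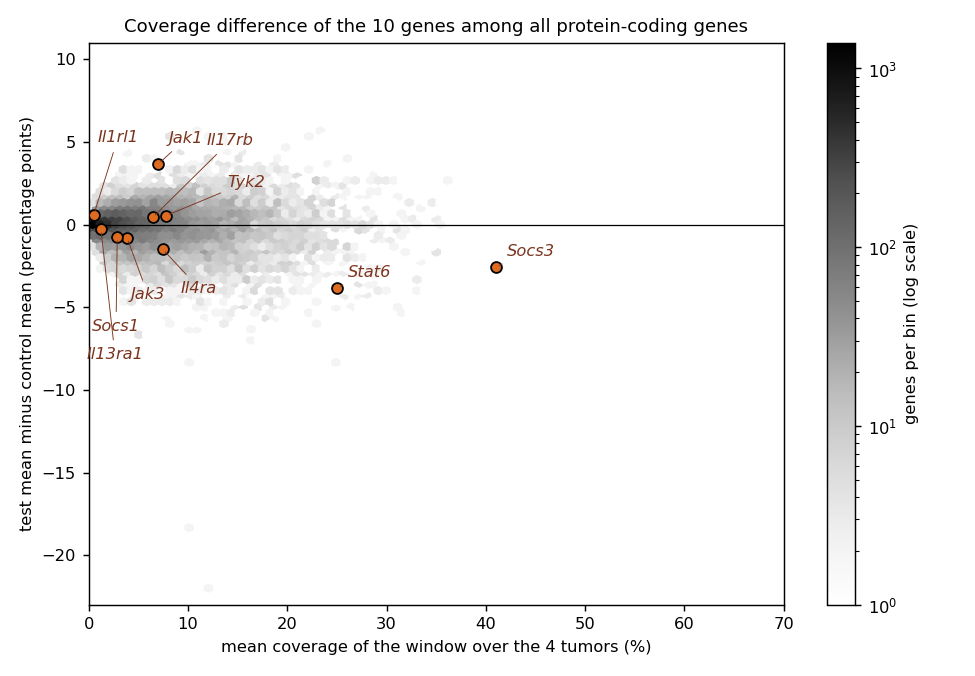
Test mean minus control mean of the coverage (y axis, percentage points) against mean coverage of the 4 tumors (x axis, percent) for 18693 genes, in grey bins shaded by number on a log scale, with the 10 genes as orange points. Jak1 at 3.65 and Stat6 at -3.82 lie furthest from 0 among the 10, and Socs3 and Stat6 are the members with the most coverage.

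Il4ra encodes the receptor chain shared by IL-4 and IL-13 signalling (ENSMUSG00000030748.9, chr7:125552120-125579474, plus strand). Coverage was 8.50% for control 1, 7.90% for control 2, 7.66% for test 1 and 5.74% for test 2. Both control tumors thus stood above both test tumors, but control 2 and test 1 were close. The means were 8.20 ± 0.421% (SD, n = 2) and 6.70 ± 1.36% (SD, n = 2), a difference of -1.50 percentage points, which was -0.534 without test 2. The groups overlapped when only the gene body, a flank of 10 kb, peaks of at least 1 kb or the same number of peaks per tumor was used. The window held 10 and 11 peaks in the control pair and 7 and 6 in the test pair.

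The acetylated stretch over the Il4ra promoter reached into the gene. The single peak at the start was 5.43 and 3.95 kb wide in the control pair and 3.78 and 3.17 kb in the test pair, wider in both control tumors. This order rested on short gaps. The peak ran to 3.85 kb past the start in control 1 and ended between 2.36 and 2.42 kb in the other 3 tumors, but a further peak followed from 2.77 to 3.99 kb in control 2, from 2.63 to 4.29 kb in test 1 and from 2.64 to 2.83 kb in test 2. Over the whole joined region the acetylated bases numbered 5434 and 5177 in the control pair and 5443 and 3369 in the test pair, with test 1 highest, test 2 lowest and the groups overlapping. Its upstream edge lay between -1.59 and -1.40 kb from the start in 3 tumors and at -0.807 kb in test 2. A mean width of 4.08 kb put Il4ra above 93.2% of genes with a promoter peak. An intronic region 7.45 kb past the start (chr7:125559568-125561438) and a region over an exon 23.5 kb past it (chr7:125575644-125577746) were also present in all 4 tumors. The intronic region held 1838 and 1871 acetylated bases in the control pair and 1432 and 1175 in the test pair, whereas the exonic region held 1908, 1821, 1942 and 2099. The first was wider in both control tumors and the second in both test tumors.

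The 3 genes on other chromosomes whose coverage was most like that of Il4ra, by the largest difference in any of the 4 tumors, were Ap3m1 (0.345 percentage points), Cap1 (0.366) and Eid3 (0.407). In Ap3m1, for instance, coverage was 8.20 and 8.14% in the control pair and 7.63 and 5.40% in the test pair.

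Il13ra1, the second chain of the IL-13 receptor (ENSMUSG00000017057.9, chrX:36112110-36171259, plus strand), had a narrow promoter peak of nearly one width in every tumor. It spanned 1.33 and 1.25 kb in the control pair and 1.30 and 1.26 kb in the test pair, and the groups overlapped. Coverage of the window was 1.45% for control 1, 1.28% for control 2, 1.38% for test 1 and 0.790% for test 2, which also overlapped. The 3 other regions of the window, all intronic and 1.16 to 17.4 kb past the start, were present in 3 tumors and absent from test 2, where the promoter peak was the only 1 left.

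Jak1 showed the largest test-high difference among the 10 genes. It encodes the kinase used by both receptor forms (ENSMUSG00000028530.14, chr4:101152367-101265282, minus strand). Coverage was 7.62% for control 1, 2.72% for control 2, 9.90% for test 1 and 7.73% for test 2. The groups did not overlap, but control 1 nearly reached test 2, and control 2 stood far below the other 3. The means were 5.17 ± 3.47% (SD, n = 2) and 8.82 ± 1.53% (SD, n = 2), a difference of 3.65 percentage points, above the 2.41 that 2.5% of all tested genes exceeded. Without control 2 it was 1.20 and without control 1 it was 6.10.

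The window of Jak1 is the only one of the 10 without another protein-coding start, and the nearest, that of Ak4, is 154 kb away. It held 24 and 10 peaks in the control pair and 22 and 20 in the test pair. Of its 30 regions, 8 were present in all 4 tumors and 5 in every tumor but control 2. These 5 were all of the regions missing from control 2 alone in the windows of the 10 genes, and their median width was 2029 bp, against 632.5 bp for such regions in the genome. The widest, 94.0 kb past the start over an exon, held 1414 bases for control 1, 0 for control 2, 2516 for test 1 and 2360 for test 2. The region upstream of the gene at -26.4 kb held 1950, 1747, 2223 and 1899 bases and was thus marked in control 2 as well. The promoter peak was 1.22 and 1.26 kb wide in the control pair and 1.36 and 1.47 kb in the test pair, wider in both test tumors by a small margin. Of the Jak1 regions, 3, all intronic and 27.7, 44.3 and 96.9 kb past the start, were test-only, and 1 at 81.8 kb was control-only.

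Jak3, the kinase tied to the common γ chain and best known from lymphocytes (ENSMUSG00000031805.17, chr8:71676296-71690575, plus strand), had a promoter peak in every tumor. No T cell marker had a peak at its annotated start in all 4, but 1, Lck, had one at another transcript start in all 4. Coverage was 4.43% for control 1, 4.11% for control 2, 4.75% for test 1 and 2.17% for test 2, and the groups overlapped. Within 10 kb of the gene they did not, with a difference of -2.36 percentage points. That flank takes in the control-only region in an intron of Unc13a. This region held 186 and 441 bases in the control pair and 0 in each test tumor. Over bases nearest to the start of Jak3 the groups overlapped, with a difference of -4.00. For the whole window the difference was -0.809, and it was 0.480 without test 2 and -2.10 without test 1. The promoter peak was 2.09 and 1.86 kb wide in the control pair and 1.89 and 1.37 kb in the test pair, with test 2 narrowest. Of the 10 regions in the window, the promoter region was the only 1 nearer to the start of Jak3 than to that of another gene, and Unc13a starts 4.54 kb away.

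Tyk2, the kinase that serves IL-13Rα1 (ENSMUSG00000032175.11, chr9:21104068-21131243, minus strand), overlapped between the groups, at 6.46% for control 1, 8.62% for control 2, 8.65% for test 1 and 7.52% for test 2. Its 9 regions were all present in all 4 tumors, the only window of the 10 with no region that varied in presence. At the promoter, control 1 and test 1 each had 2 peaks parted by a gap, and control 2 and test 2 had 1 peak across it. The 300 bases of the RefSeq promoter accordingly lay in peaks for 12% and 31.7% in control 1 and test 1, and for 100% in control 2 and test 2. The window holds the starts of 7 other protein-coding genes, and only 2 regions were nearest to Tyk2.

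Stat6 encodes the transcription factor of the pathway (ENSMUSG00000002147.18, chr10:127642986-127660957, plus strand). Coverage was 27.4% for control 1, 26.5% for control 2, 28.3% for test 1 and 17.96% for test 2, so test 1 was the highest and test 2 by far the lowest. The difference of -3.82 percentage points lay below the -3.50 that marks the lowest 2.5% of all tested genes, but it was 1.33 without test 2. The number of peaks was 20 in each control tumor, 18 in test 1 and 16 in test 2, 1 of 2 members with more peaks in both control tumors, beside 15.8% of all tested genes. The promoter peak itself spanned 2.60 and 2.56 kb in the control pair and 2.73 and 2.54 kb in the test pair and overlapped between groups.

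The lower coverage of test 2 lay upstream of Stat6, over Lrp1, which encodes an endocytic receptor. A region at the Lrp1 promoter, at -21.9 kb from the Stat6 start, held 4269 and 5719 acetylated bases in the control pair, 5651 in test 1 and 677 in test 2. Another, over exons of Lrp1, held 7636, 7041, 6454 and 3264. Within the gene body of Stat6 the order was different, with 14.67 and 13.1% in the control pair and 23.3 and 14.70% in the test pair, and the difference there was 5.14 percentage points with control 1 and test 2 almost equal.

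Socs1 encodes an inhibitor of the kinases (ENSMUSG00000038037.5, chr16:10782240-10785536, minus strand). Coverage was 2.75% for control 1, 3.74% for control 2, 2.59% for test 1 and 2.40% for test 2. Both control tumors were above both test tumors, with a narrow gap between control 1 and test 1. The means were 3.25 ± 0.701% (SD, n = 2) and 2.49 ± 0.135% (SD, n = 2), a difference of -0.756 percentage points, which was -0.260 without control 2 and -1.25 without control 1. The peak over the promoter and the front of this short gene was 2.69 and 3.11 kb wide in the control pair and 2.41 and 1.95 kb in the test pair. Of the gene body, 34.2 and 54.4% lay in peaks in the control pair and 30.6 and 20.3% in the test pair. Control 2 also had a second peak of 0.6 kb in the gene, present in no other tumor.

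Socs3, the other inhibitor (ENSMUSG00000053113.3, chr11:117966079-117970047, minus strand), lay inside the broadest domain of the 10. Coverage of the window was 40.3% for control 1, 44.3% for control 2, 43.0% for test 1 and 36.5% for test 2, and overlapped between groups. The peak at its start was 10.3 and 9.24 kb wide in the control pair, 8.42 kb in test 1 and 2.83 kb in test 2. Both control tumors were therefore wider than both test tumors, and test 2 was far narrower than the rest, with further separate peaks downstream. Over the joined region the control pair held 12901 and 12561 acetylated bases and the test pair 11913 and 8143, which also did not overlap. The gene body lay wholly in peaks in the first 3 tumors and for 69.5% in test 2. The coverage difference was -2.56 percentage points for the whole window and -10.8 within 10 kb of the gene, where the groups did not overlap. For the whole window it was 0.714 without test 2 and -0.518 without control 2. Over the neighbouring gene Pgs1 the order was another: a region of 7681 bp in its intron held 7449 and 6732 bases in the control pair and 7043 and 7431 in the test pair. Regions of 4632, 5425 and 5111 bp over its exons held more acetylated bases in both test tumors. The last of these held 2972 and 3991 bases in the control pair and 4168 and 4962 in the test pair. In the region at the Pgs1 promoter the groups overlapped.

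**Figure D4:**
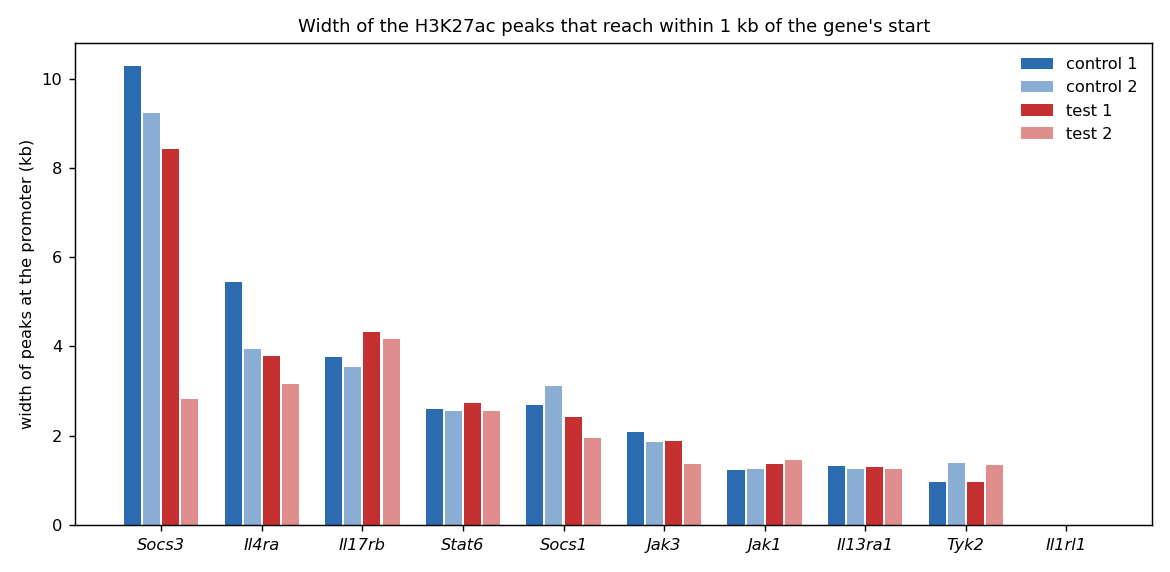
Summed width in kb (y axis, from 0) of the peaks that reach within 1 kb of each gene's start, by tumor (control 1 and 2, dark and light blue; test 1 and 2, dark and light red). Socs3, Il4ra and Socs1 are wider in both control tumors, Jak1 and Il17rb in both test tumors, and Il1rl1 has none.

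Over the 9 genes with a promoter peak, the peaks were wider in both control tumors for 3 genes, Il4ra, Socs1 and Socs3, and in both test tumors for 2, Jak1 and Il17rb, of which the order of Il4ra was lost over its joined region. Over all 12546 genes with a promoter peak in any tumor the shares were 10.5% and 22.7%.

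Il17rb, the IL-25 receptor gene (ENSMUSG00000015966.17, chr14:29996135-30008896, minus strand), shares its promoter with Chdh, a choline-metabolism gene on the other strand that starts 0.127 kb away. Coverage was 6.11% for control 1, 6.34% for control 2, 6.87% for test 1 and 6.44% for test 2. Both test tumors were higher, but control 2 and test 2 were close, and the difference of 0.429 percentage points was 0 over bases nearer to the start of Il17rb than to any other and over 1 kb from the other starts. Without test 1 the difference for the whole window was 0.217 percentage points. The peak lay on the Chdh side. Its near edge was 0.139 and 0.193 kb short of the Il17rb start in the control pair and 0.061 kb short of it in test 1, and in test 2 it reached 0.101 kb past the start. The peak was 3.77 and 3.55 kb wide in the control pair and 4.33 and 4.16 kb in the test pair. The body of Il17rb lay in no peak in 3 tumors and for 0.799% in test 2, so beyond the shared promoter no acetylation of the gene was found in these lists.

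Il1rl1 encodes ST2, the IL-33 receptor (ENSMUSG00000026069.15, chr1:40429570-40465415, plus strand), and 0 of its regions lay nearest to its own start. Coverage was 0.409% for control 1, 0.00294% for control 2, 0.217% for test 1 and 1.39% for test 2, and the groups overlapped. All of it came from peaks over the neighbours Il18r1 and Il18rap, which encode the chains of the IL-18 receptor, and the window ends within the region at Il18rap. The nearest peak to the Il1rl1 start was 85.3 kb away in control 1 and in test 1, 85.8 kb away in control 2 and 36.1 kb away in test 2. Test 2 alone had 3 peaks at Il18r1. The number of peaks was 1 in each control tumor and 2 and 4 in the test pair, the only member with more peaks in both test tumors, beside 5.56% of all tested genes.

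Most regions in the 10 windows were either shared by all 4 tumors or found in 1. Of 135 regions, 52 (38.5%) were in all 4, beside 38.1% of 91238 regions in the genome, and 48 (35.6%) were in 1 tumor, beside 36.2%. The shared ones had a median width of 1825 bp and those of a single tumor 207 bp. Control-only regions numbered 5, 1 each in the windows of Il4ra, Stat6, Jak1, Jak3 and Socs3, and test-only regions 4, 3 of Jak1 and 1 of Socs3. A control-only region was thus found at 5 members and a test-only region at 2, while 22.3% and 12.2% of all tested windows had one. As a share of regions, control-only ones were 3.70% in the 10 windows and 3.41% in the genome, and test-only ones 2.96% and 1.47%. No promoter of the 10 genes was control-only or test-only. All 5 control-only regions were gone when only peaks of at least 1 kb were kept (0 left), and their median width was 441 bp.

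Other genes of the pathway, listed by role, had mixed directions. Of 44 genes, all with coverage, 9 were higher in both control tumors, 7 in both test tumors and 28 overlapped, beside 13% and 17.3% of all tested genes in the 2 directions, and their median difference was -0.0359 percentage points. A promoter peak was present in all 4 tumors at 21 and in none at 19, beside 49.6% and 42.8% of all genes, and none was control-only or test-only (0 genes).

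Adaptors and regulators of the receptors were acetylated at the promoter in all 4 tumors in 13 of 13 genes, beside 49.6% of all genes. Of these, 5 (Jak2, Irs1, Ptpn6, Irak4 and Traf6) were higher in both test tumors and 0 in both control tumors, beside 17.3% and 13% of all tested genes, with a median difference of 0.657 percentage points. Ptpn6, the phosphatase SHP-1, had 22.4 and 20.8% coverage in the control pair and 24.3 and 24.4% in the test pair. Irs1, an adaptor of the IL-4 and insulin receptors, had 8.12 and 7.11% in the control pair and 8.66 and 10.1% in the test pair. In neither gene did the groups overlap.

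Among 18 target genes of IL-4 and IL-13, many of them known from macrophages, 5 (Mrc1, Ccl24, Ccl11, Pdcd1lg2 and Irf4) were higher in both control tumors and 0 in both test tumors, beside 13% and 17.3% of all tested genes, with a median difference of -0.191 percentage points. No peak was found at the annotated start in any tumor for 13 of the 18, beside 42.8% of all genes, though Alox15 in control 2 and Pparg in test 2 had one at another transcript start. Pdcd1lg2, which encodes the checkpoint ligand PD-L2, had 6.01 and 8.75% in the control pair and 5.35 and 3.95% in the test pair. Ccl24, a chemokine for eosinophils, had 1.84 and 2.03% in the control pair, 1.25% in test 1 and 0 in test 2. Of the macrophage markers, 5 of 12 were higher in both control tumors and 0 in both test tumors, to be read against the same shares of all genes, and their summed coverage was 121 and 106% in the control pair and 110 and 84.4% in the test pair. C1qa and C1qb, both among these 5, are neighbours with overlapping windows and are not independent counts. Each had 8 and 10 peaks in the control pair and 8 and 3 in the test pair. The part of the macrophage markers in the values of the target genes was not tested.

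Of 7 type 2 cytokine and alarmin genes, 3 (Il4, Il13 and Il5) were higher in both control tumors and 2 (Il33 and Tslp) in both test tumors, where the shares over all tested genes were 13% and 17.3%. Il4 and Il13 are neighbours whose windows overlap, so they are not independent counts. Peaks in the control and test pairs numbered 5, 2, 3 and 2 at Il4 and 6, 2, 4 and 2 at Il13. Coverage at Il13 was 4.20 and 2.41% in the control pair and 2.30 and 1.98% in the test pair, so control 1 stood above the other 3. Il33 was the only 1 with a promoter peak in all 4 tumors, and the other 6 had none in any, beside 49.6% and 42.8% of all genes. Its coverage was 5.08 and 6.52% in the control pair and 7.58 and 6.62% in the test pair, with control 2 and test 2 close. Il5, a T cell cytokine gene with no promoter peak, had 13.9 and 15.1% in the control pair and 13.8 and 11.6% in the test pair. Of 6 partner receptors 1, Il7r, was higher in both control tumors, beside 13% of all tested genes, and 5 overlapped. Il7r was near 0, with 0.285 and 0.211% in the control pair and 0.201 and 0% in the test pair. A promoter peak in all 4 tumors was found at 3 of the 6, beside 49.6% of all genes. These were Il17ra, which pairs with IL-17RB, Il1rap, which pairs with ST2, and Crlf2, the TSLP receptor gene.

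**Figure D5:**
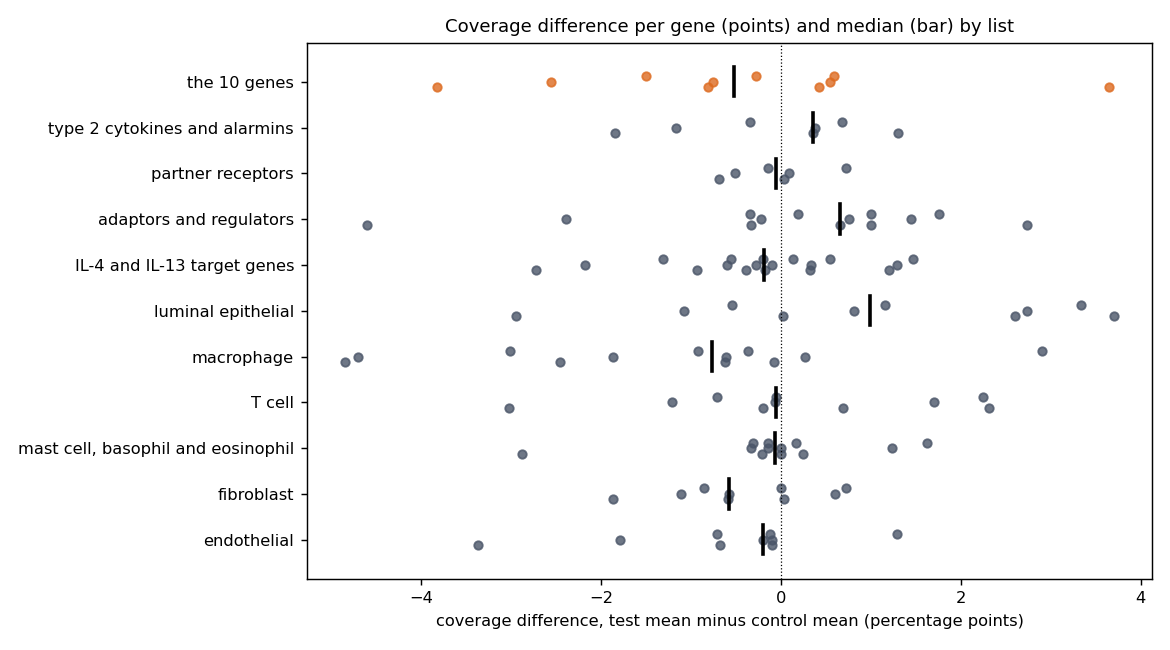
Test mean minus control mean of window coverage (x axis, percentage points) for each gene of a list (points) with the list median (bar). The adaptors and regulators have a median of 0.657 and the target genes of -0.191, while the macrophage markers have a median of -0.770 and the luminal markers of 0.987.

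Other marker lists also differed between tumors. Both control tumors were higher for 0 of 10 luminal epithelial, 5 of 9 endothelial, 3 of 9 fibroblast, 3 of 7 myoepithelial and 2 of 10 T cell markers, beside 13% of all tested genes. Both test tumors were higher for 2 luminal epithelial, 0 endothelial, 1 fibroblast (Fap), 0 myoepithelial and 3 T cell markers, beside 17.3% of all tested genes. Summed coverage of the fibroblast list was 34.7 and 32.1% in the control pair and 34.9 and 24.5% in the test pair, and that of the endothelial list 41.5, 39.9, 37.9 and 31.9%. Test 2 was lowest for both, as it was for 6 of the 10 genes. Of the 12 genes of the mast cell, basophil and eosinophil list, 10 had coverage. Both control tumors were higher for 3 (Ms4a2, Prss34 and Ccr3) and both test tumors for 2 (Kit and Tpsb2), beside 13% and 17.3% of all tested genes. Some of these values were near 0. Ms4a2 had 0.607 and 0.579% in the control pair and 0.518 and 0% in the test pair, and Tpsb2 had 0, 0, 0.175 and 0.158%. Of the same list Cpa3 and Fcer1a were at 0 in every tumor, as was Lum of the fibroblasts. The part of cell makeup in the differences of the 10 genes was not tested.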

How the data were processed

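H3K27ac ChIP-seq was done on pieces of 4 breast tumors, each with an input library not used here. The authors aligned reads with BWA to mm10, and peaks were called by MACS2 for every tumor against its own input, without pooling. The deposited lists hold the chromosome, start and end of each interval in base pairs, cleaned and merged by the authors (smallest gap 201 bp), with no height, score or p-value. What the cleaning removed is not given in the sources used here.

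Groups were taken from the genotype per the labels, and tumor numbers follow accession order and only name a tumor. Gene positions came from GENCODE M21, and the start was the 5′ end of the gene. Coverage was the share of window bases in peaks, and the 18693 genes tested are those with some coverage in at least 1 tumor. Promoters reached 1 kb either side of the start, and a region was present with an overlap of at least 1 bp. Promoter letters came from the RefSeq table for GRCm38.p6, which held 11 promoters for the 10 members, and region letters from the same genome. Computations used Python 3.11.15, numpy 2.4.6 and pysam 0.24.0, and the coverage code was tested on simulated peaks.

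Alternatives were flanks of 10 kb or none, peaks of at least 1 kb, the 59762 widest peaks of each tumor, coverage scaled to the mean of all windows, bases nearest to the gene's own start, and leaving out each tumor. Others were a promoter of 2.5 kb either side, any transcript start, regions covered for at least 50% and peaks joined within 1 kb. The use of the start base itself was added after seeing the data. Named genes were all 10 members, and, of the other pathway genes, up to 3 per direction with the largest difference among those whose groups did not overlap. The genes nearest to Il4ra in coverage, up to 2 regions per direction for sequences, and promoters with a STAT-type motif or of Il4ra were named by the same rule. The second Il1rl1 promoter, the regions within windows, Lrp1, Pgs1 and Unc13a, and the other pathway genes were described after their values were seen. Members and lists were chosen with earlier results of these data known.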

Additional observations from a re-analysis of the deposited data

How the results depend on the processing

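No paired analysis was possible because the labels give no replicate numbers shared by the groups. A promoter peak in all 4 tumors was found at 8 to 9 members under every alternative run, the start base itself included. Members higher in both control tumors numbered 2, but 1 over the gene body alone, 1 with the same number of peaks, 3 with a 10 kb flank (Socs1, Jak3 and Socs3) and 3 after scaling, and 2 to 6 when 1 tumor was left out. Members higher in both test tumors numbered 2, but 1 over bases nearest to the own start, and 3 to 5 when 1 tumor was left out. The median difference of -0.518 ranged from -0.713 to 0.561 when 1 tumor was left out, positive without test 2 alone, and was -0.890 with a 10 kb flank and -0.840 over bases nearest to the own start. Control-only regions numbered 5, and 2 with a 10 kb flank, 1 over the gene body, 0 with peaks of at least 1 kb, 2 with the same number of peaks, 3 over bases nearest to the own start and 5 to 22 without 1 tumor. Test-only regions numbered 4, and 2 with peaks of at least 1 kb (others than the 4, which were all narrower), 7 where 50% of a region had to be covered, 1 with peaks joined within 1 kb and 4 to 17 without 1 tumor. Counts without 1 tumor ask for a pattern over fewer tumors, which by itself admits more regions and more genes without overlap. The cause of the other changes was not tested. Jak1 and Socs1 did not overlap between groups in 6 of 6 alternatives with all tumors, Il17rb in 4, Il4ra, Jak3 and Stat6 in 2 each and Socs3 in 1. The 2 of Stat6 were of opposite direction, -3.65 after scaling and 5.14 over the gene body. Stat6 also changed the sign of its difference, to 3.17 with a 10 kb flank and 2.49 over bases nearest to its own start. Tyk2 turned from 0.546 to -1.21 with a 10 kb flank and -1.98 over bases nearest to its own start. Its difference was -0.537 without control 1, 1.63 without control 2, -0.0185 without test 1 and 1.11 without test 2. The lists give no read depth, which limits the reading of any small difference in width or number of peaks.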
